A study of Mus musculus with 28 samples.

Results

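Medulloblastomas of Rictor-null mice were compared with normal brain tissue of mice of the same genotype, across all genes measured. The samples were chosen by their labels: 10 of 28 arrays carry the genotype hGFAP-Cre::p53-/-; Rictor-/- and are either medulloblastoma (5 arrays) or normal brain (5 arrays). Both groups are labelled null for p53 and Rictor and carry the same Cre recombinase, so the comparison is of tissue and not of labelled genotype. The hGFAP promoter that drives Cre is active in neural progenitors and in glia, and cells outside that lineage, such as microglia and endothelium, would keep genes that are deleted by Cre. Mice heterozygous for Rictor (hGFAP-Cre::p53-/-; Rictor+/-), with 2 medulloblastomas and 5 normal brains, are set beside them. The labels give no age and do not say which part of the brain a normal sample came from. Nor is it stated whether each array of a tissue stands for its own animal. P-values therefore measure the spread between these arrays, which may be technical.

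Medulloblastoma is a tumour of the cerebellum. Its Sonic hedgehog type arises from granule neuron precursors, which divide in the outer layer of the young cerebellum in response to Shh secreted by Purkinje cells. Shh relieves the inhibition of Smo by the receptor Ptch1, and Gli transcription factors then switch on Mycn, D-type cyclins and Ptch1 itself. Rictor is a subunit of mTORC2, the mTOR complex that phosphorylates AKT, SGK and PKC kinases.

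Each array gives an intensity per probe set on a linear scale, which the authors brought to a common trimmed mean. Values below are intensities. Differences are medulloblastoma minus normal brain on the scale of log2(intensity + 6.3), which understates the change of dim genes, and genes were called by limma at an adjusted p under 0.05. Where 5 values are given for a group, they follow the codes in the titles: C1, C2, C4, C5 and C6 for medulloblastoma, and C1, C2, C3, C5 and C6 for normal brain. Across genes, the medulloblastomas correlated with each other at r = 0.874 to 0.949 and the normal brains at 0.893 to 0.972, and medulloblastoma correlated with normal brain at 0.674 to 0.874. The ratio of 3' to 5' actin probe sets, which rises with RNA degradation, was 2.02 to 2.93 in medulloblastomas and 2.32 to 4.95 in normal brains.

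Marker genes set 3 arrays apart from their groups, as seen after their values were known. Medulloblastoma C6 had an Atoh1 intensity of 37.5, against 717 to 1335 in the other 4 tumours, and its summed intensity over 10 Purkinje and Bergmann cell genes was 8147, against 1179 to 2448. Normal brain C2 was high for proliferation and granule precursor genes, with Atoh1 at 176 against 1.4 to 9.7 in the other 4 brains and the proliferation marker Mki67 at 275 against 3.5 to 27.2. The source of these transcripts, from precursors of the brain piece or from tumour tissue in it, was not tested. Normal brain C5 was high for cerebellar transcripts. Gabra6, a GABA receptor subunit of cerebellar granule neurons, was at 4153 there and at 1.1 to 116 in the other brains, while the summed intensity of 18 forebrain patterning factors was 981 in C5 and 4893 to 5825 in the others. Leaving out these 3 arrays gave 6479 called genes, 5811 of them shared with the 6537 called in all 10 arrays.

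Rictor itself was at 68.8, 159, 190.4, 202 and 236 in the medulloblastomas, against 271, 213, 222, 444 and 238 in the normal brains. Tumour C6 exceeded brains C2 and C3, so the groups overlapped, and the difference did not pass the test (log2 -0.73, SE 0.32, adjusted p = 0.0787). It passed in the fit of group means on all 28 arrays (adjusted p = 0.0226) and without tumour C6 (adjusted p = 0.0446). Rictor-heterozygous mice averaged 269 in 2 medulloblastomas and 282 ± 60 (SD, n = 5) in normal brain. The files do not say whether this probe set lies in the deleted part of the gene, so the level checks nothing about the genotype.

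**Figure D1:**
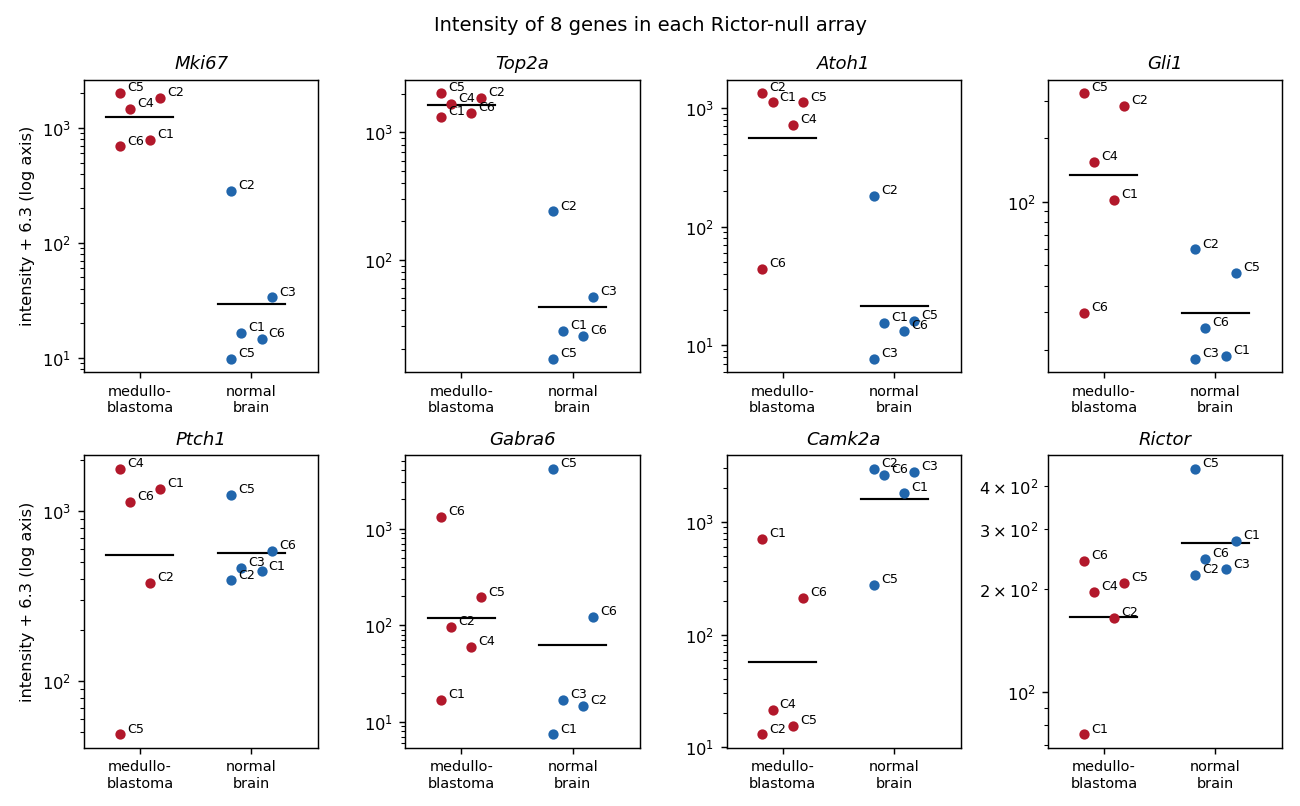
Intensity of 8 genes (plus 6.3, log axis) in each Rictor-null array, with the 5 medulloblastomas left of the 5 normal brains; points carry the array code and the black bar is the mean on the log scale. Mki67 is above all brains in every tumour, Atoh1 is at 37.5 in tumour C6, Gabra6 is at 4153 in brain C5, and Ptch1 is at 42.3 in tumour C5.

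Genes of cell division were higher in the medulloblastomas and genes of mature neurons, myelin and astrocytes lower. Of 13931 genes tested, 6537 were called (46.9%), 3178 of them higher in medulloblastoma (22.8%) and 3359 lower (24.1%). All 5 tumours lay above all 5 brains for 2155 genes (15.5%) and below them for 2040 genes (14.6%). Differences of over 8-fold were called for 141 genes higher and 216 genes lower, and the median log2 difference over all genes was -0.006. Fewer arrays gave fewer calls: 2840 genes within title prefix YZ (3 tumours, 2 brains), 3221 within YZ2 (2 tumours, 3 brains) and 450 with brain C5 as the only normal brain. The counts of each gene list below are to be read against these shares. In all, 43 lists held 657 tested genes, of which 457 were called. In bulk tissue, fewer cells of a type and less RNA per cell cannot be told apart.

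Several genes of mitosis were among those with the widest gaps between the groups. Rankings of genes in this report leave out clone and predicted names and genes whose probe sets were called in opposite directions. Bub1, a kinase of the spindle checkpoint, was at 445, 514, 493, 648 and 441 in medulloblastomas, against 0.4, 46.1, 12.8, 5.4 and 3.8 in normal brains (log2 5.07, SE 0.45, adjusted p = 3.8e-05). Ube2c, which passes ubiquitin to the anaphase-promoting complex, was at 981, 945, 1454, 1212 and 875 in medulloblastomas, against 13.8, 108, 22.9, 2.0 and 15.7 in normal brains (log2 5.37, SE 0.53, adjusted p = 5.65e-05). For both genes every tumour exceeded every brain, and the highest brain was C2. The other 8 of the 10 genes with the widest gap upward were Nusap1, Igfbpl1, Cep55, Top2a, Pbk, Ccnb2, Birc5 and Gins1, of which Gins1 is a replication gene and Igfbpl1, Cep55 and Pbk are in none of the lists. Mki67 showed the largest log2 rise of the called genes so ranked. It averaged 1347 ± 595 in medulloblastomas and 64.8 ± 118 in normal brains (SD, n = 5 each, log2 5.40, SE 0.77, adjusted p = 0.000275).

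The widest gaps in the other direction were those of Faim2, Pcnx2, Nefl, Nell1, Reps2, Nrsn2, Elmod1, Pgr, B3galt5 and Gjb6. Faim2, a neuronal inhibitor of Fas-induced death, was at 31.5, 1.5, 1.9, 2.2 and 38.8 in medulloblastomas, against 243, 205, 259, 235 and 252 in normal brains (log2 -3.97, SE 0.50, adjusted p = 0.000152). Nefl, the light neurofilament of axons, was at 524, 16.4, 12.7, 36.1 and 466 in medulloblastomas, against 1981, 1966, 2708, 2189 and 2437 in normal brains (log2 -4.71, SE 0.88, adjusted p = 0.00126). Tumours C1 and C6 were the highest tumours for all 10 of these genes, and no tumour reached the lowest brain.

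**Figure D2:**
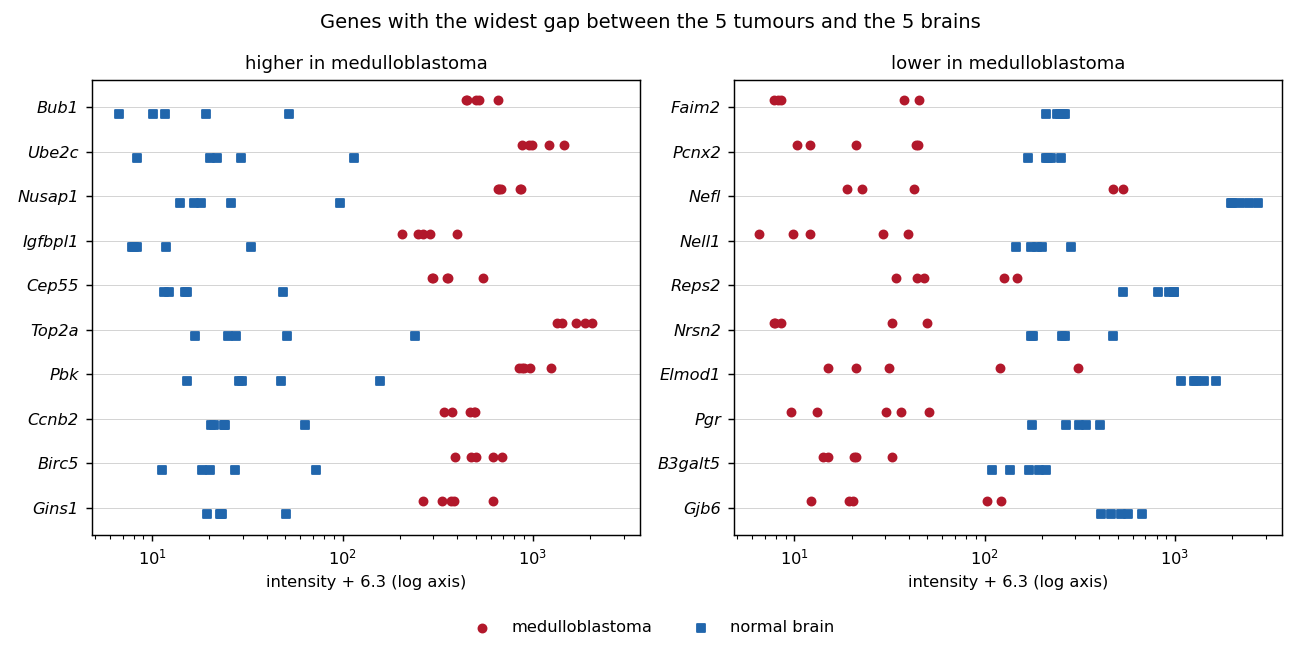
Intensity (plus 6.3, log axis) of the 10 genes higher and the 10 genes lower with the widest gap between the 5 medulloblastomas (red circles) and the 5 normal brains (blue squares). For Bub1 the tumours lie at 441 to 648 and the brains at 0.4 to 46.1; for Faim2 the tumours lie at 1.5 to 38.8 and the brains at 205 to 259.

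The promoters of the mitosis and replication genes differed in the elements they hold. The CHR element, TTTGAA, is bound by the DREAM and B-MYB-MuvB complexes at genes of G2 and mitosis, and E2F factors bind TTCCCGC or TTGGCGC at genes of S phase. Both were searched on both strands in RefSeq promoters of GRCm38.p6, 250 bases before to 50 after the start. A gene was counted where any of its listed promoters held the letters. CHR letters stood in promoters of 17 of 24 mitosis genes (70.8%) and 3 of 25 replication genes (12%), against 14.3% of the 11191 tested genes with a promoter. E2F letters stood in promoters of 1 of 24 mitosis genes (4.17%) and 14 of 25 replication genes (56%), against 13.5% of the 11191. A match is a description and not a proven site. Ube2c and Top2a are shown as mitosis genes with a wide gap among those that hold a match. Bub1 and Nusap1, with gaps wider than that of Top2a, had no match counted. Mcm6, chosen after its values were seen, is shown as a replication gene. Capitals mark the matches, and each sequence runs 5′ to 3′ on the gene's strand. Ube2c lies at chr2:164769679-164769978 on the + strand, with its CHR match beginning 29 bases before the start. Top2a lies at chr11:99024140-99024439 on the - strand, with matches 179 and 23 bases before the start. Mcm6 lies at chr1:128359656-128359955 on the - strand, with E2F matches 109 and 46 bases before the start.
Ube2c: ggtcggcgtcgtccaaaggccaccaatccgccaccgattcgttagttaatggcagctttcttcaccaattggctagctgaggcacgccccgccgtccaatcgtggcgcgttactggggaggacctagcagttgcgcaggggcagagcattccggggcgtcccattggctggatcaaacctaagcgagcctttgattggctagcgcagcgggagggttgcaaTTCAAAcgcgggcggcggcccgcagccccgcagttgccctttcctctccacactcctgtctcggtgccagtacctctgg
Top2a: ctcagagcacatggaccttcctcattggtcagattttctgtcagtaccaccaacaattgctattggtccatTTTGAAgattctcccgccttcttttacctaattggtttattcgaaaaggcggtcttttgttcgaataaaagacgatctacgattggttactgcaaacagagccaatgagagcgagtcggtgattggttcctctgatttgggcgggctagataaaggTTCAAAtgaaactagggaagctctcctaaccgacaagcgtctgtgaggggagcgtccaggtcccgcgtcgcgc
Mcm6: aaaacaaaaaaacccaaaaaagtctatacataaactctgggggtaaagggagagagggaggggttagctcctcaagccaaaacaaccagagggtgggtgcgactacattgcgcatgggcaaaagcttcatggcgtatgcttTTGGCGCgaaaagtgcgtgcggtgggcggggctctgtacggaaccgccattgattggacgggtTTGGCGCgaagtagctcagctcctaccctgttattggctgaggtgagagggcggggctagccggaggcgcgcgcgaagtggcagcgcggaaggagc

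In the list of mitosis and spindle genes 28 of 29 rose and none fell, with a median log2 difference of 3.97; Foxm1 did not pass. Top2a, the topoisomerase that untangles sister chromatids, was at 1326, 1862, 1668, 2031 and 1423 in medulloblastomas, against 21.2, 233, 44.7, 10.4 and 18.8 in normal brains (log2 5.27, SE 0.58, adjusted p = 7.78e-05). Every tumour exceeded every brain. Against normal brain C5 alone, 28 of 29 were called higher with a median of 4.44. Without tumour C6 and brains C2 and C5 the count was 29 of 29, with a median of 4.33. Brain C2 was set apart for its high proliferation genes, so this wider difference follows from that choice and is no independent check.

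Replication genes rose in 27 of 28 (median 2.57), Fen1 not passing. Rrm2, the small subunit of ribonucleotide reductase, was at 2587, 1907, 2627, 1333 and 2048 in medulloblastomas, against 26, 273, 53.1, 18 and 39 in normal brains (log2 5.17, SE 0.54, adjusted p = 6.64e-05). Mcm6 and Mcm3, subunits of the replicative helicase, had log2 differences of 4.39 (SE 0.38) and 4.15 (SE 0.38). Brain C2 was the highest brain for all 3, below the lowest tumour. All 15 tested genes of homologous recombination and the damage checkpoint rose (median 2.01). Brca1, which acts in the repair of broken DNA, averaged 251 ± 47.4 in medulloblastomas and 27.2 ± 11.4 in normal brains (SD, n = 5 each). Rad51ap1, Exo1 and Trip13 had the largest differences of that list, at 3.87, 3.56 and 3.39.

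Regulators of entry into S phase rose in 17 of 21, and none fell (median 2.47). Those that rose include the CDK inhibitor genes Cdkn2a, Cdkn2b, Cdkn2c, Cdkn1b and Cdkn1c, so the count is not one of genes that drive division alone. Cdk6, a kinase partner of D-type cyclins, was at 473, 1211, 4715, 729.9 and 1869 in medulloblastomas, against 9.1, 149, 19.8, 13.9 and 26.2 in normal brains (log2 5.29, SE 0.68, adjusted p = 0.000168). All tumours exceeded all brains, with tumour C4 the highest. Ccnd1, a D-type cyclin, was at 997, 2152, 2466, 2139 and 3961 in medulloblastomas, against 86.7, 446, 1059.9, 98.4 and 124 in normal brains (log2 3.24, SE 0.63, adjusted p = 0.00167), and tumour C1 lay below brain C3. Cdkn2a, which encodes the inhibitors INK4A and ARF, was at 492, 158, 617, 713 and 23.4 in medulloblastomas, against 2.0, 13.9, 24.3, 3.3 and 0.7 in normal brains (log2 4.32, SE 0.80, adjusted p = 0.0012). Tumour C6 lay within the range of the brains for Cdkn2a.

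Among chromatin and DNA methylation enzymes 13 of 21 rose and 4 fell. Uhrf1, which brings the maintenance methyltransferase to newly copied DNA, averaged 707 ± 273 in medulloblastomas and 38 ± 62 in normal brains (SD, n = 5 each; log2 4.69, SE 0.59, adjusted p = 0.000153). Hmgb2, Ezh2 and Hells had differences of 4.40 (SE 0.45), 3.75 (SE 0.42) and 3.51 (SE 0.37). Ezh2 is the catalytic subunit of Polycomb complex 2, and its alternative Ezh1 was among those that fell, with Hdac11, Smarca2 and Hdac5.

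Hedgehog signalling genes rose at the level of the Gli factors and their targets, the ligand fell, and Ptch1 differed from tumour to tumour. Of 16 Gli factors and targets 11 rose and none fell (median 2.44), and 1 was called lower without brain C2 or without tumour C6. Mycn, a transcription factor that hedgehog signalling induces in granule precursors, was at 2637, 2019, 1632, 4134 and 1178 in medulloblastomas, against 92.3, 379.5, 58.6, 53.5 and 105 in normal brains (log2 4.27, SE 0.48, adjusted p = 9.02e-05). Gli2, the main activator, averaged 759 ± 335 in medulloblastomas and 72.3 ± 54.2 in normal brains (SD, n = 5 each; log2 3.38, SE 0.38, adjusted p = 9.02e-05). Every tumour exceeded every brain for both genes. Gli1, a direct target and common readout of the pathway, was at 95.4, 278, 148, 321 and 23.4 in medulloblastomas, against 12.4, 53.2, 11.8, 39.6 and 19 in normal brains (log2 2.17, SE 0.61, adjusted p = 0.0117). Tumour C6 lay within the range of the brains, and without C6 and brains C2 and C5 the difference was 3.26. Tumour C6 and brain C2 were set apart by Atoh1, which is also in this list, so that value is no independent check. Cxcr4, a chemokine receptor of migrating precursors, was at 425, 302, 357, 436 and 101 in medulloblastomas, against 4.1, 29.5, 5.3, 15.1 and 5.4 in normal brains (log2 4.20, SE 0.44, adjusted p = 7.08e-05), C6 being the lowest tumour.

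Of 12 ligands, receptors and modulators 5 rose and 1 fell. The ligand Shh was at 21.6, 15.6, 5.5, 16.1 and 40 in medulloblastomas, against 169, 65.3, 98.6, 230.1 and 114 in normal brains (log2 -2.46, SE 0.39, adjusted p = 0.000495), and every tumour lay below every brain. The transducer Smo was at 423, 839, 755, 718 and 149.8 in medulloblastomas, against 69.9, 206, 76.7, 114 and 88.8 in normal brains (log2 2.20, SE 0.45, adjusted p = 0.00216), tumour C6 overlapping the brains. Boc, a co-receptor of Shh, had a difference of 1.94 (SE 0.40). Ptch1 was at 1347, 372, 1771, 42.3 and 1131 in medulloblastomas, against 436, 386, 456, 1244 and 579.8 in normal brains (log2 -0.05, SE 0.83, adjusted p = 0.969). Tumours C1 and C4 lay above every brain and tumours C2 and C5 below every brain. The Gli letters GACCACCCA stood in promoters of none of the 10 genes with a promoter in each of these 2 lists, and of 0.214% of the 11191. That says only that these letters are not in these windows.

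Granule lineage factors, markers of the cells from which the Sonic hedgehog type arises, rose in 16 of 20 and 1 fell (median 2.54). Atoh1, the factor that keeps granule precursors dividing, was at 1111, 1335, 717, 1112 and 37.5 in medulloblastomas, against 9.2, 176, 1.4, 9.7 and 7.0 in normal brains (log2 4.69, SE 1.01, adjusted p = 0.00296). The other 4 tumours were above every brain, and C6 lay below brain C2. Insm1, a zinc-finger factor of neuronal progenitors, was at 1052, 1385, 934, 975 and 1342 in medulloblastomas, against 48.1, 287, 24.4, 7.5 and 40 in normal brains (log2 4.496, SE 0.62, adjusted p = 0.000233). Nhlh2, a bHLH factor of young neurons, had a difference of 4.18 (SE 0.56), and Meis2 was the member that fell, with 0.3 to 311 in medulloblastomas and 144 to 1596 in normal brains. Against brain C5 alone 4 of 20 were called higher with a median of 0.72, and within arrays of title prefix YZ (3 tumours, 2 brains) 7 of 20 with none lower. The E-box letters CAGCTG stood in promoters of 2 of 17 genes of this list (11.8%), against 18.3% of the 11191.

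In the neural stem cell and Sox list 11 of 22 rose and 1 fell (median 0.84). Sox11 and Sox4, factors of young neurons, averaged 1380.0 ± 344 and 3141 ± 1064 in medulloblastomas, against 213 ± 104 and 545 ± 232 in normal brains (SD, n = 5 each). Sox2, Notch1, Hes1 and Hes5 did not pass the test. Id4, an inhibitor of bHLH factors, fell, with 140.2, 15.9, 29.3, 20.9 and 509 in medulloblastomas against 1029.7, 564, 1071, 1086 and 714 in normal brains (log2 -3.65, SE 0.74, adjusted p = 0.00204). The number called lower was 3 without tumour C2, and 2 without tumour C5, tumour C6 or brain C5.

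**Figure D3:**
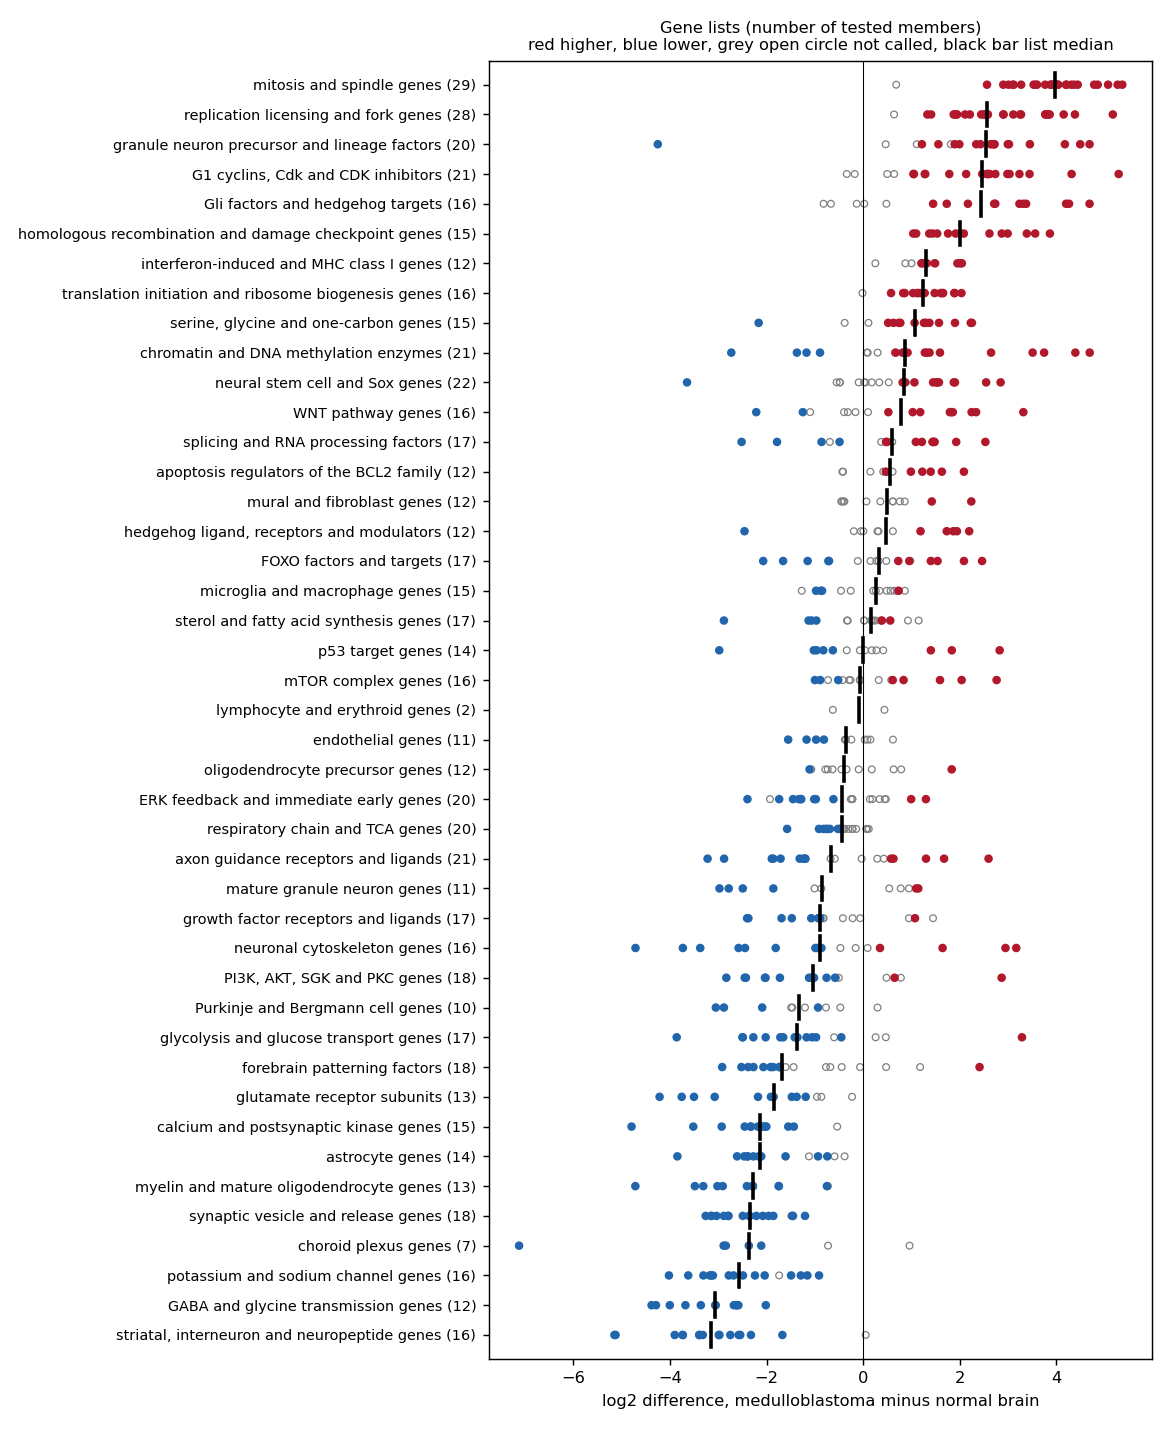
Log2 difference, medulloblastoma minus normal brain, of each tested member of 43 gene lists, ordered by list median (black bar). Red members were called higher, blue lower, grey open circles not called; the mitosis list (median 3.97) and the striatal and neuropeptide list (median -3.15) lie at the ends.

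All 12 tested genes of GABA and glycine transmission fell, with a median of -3.06. Against brain C5 alone the median was -2.13 with 0 of 12 called, and 6 of 12 were called within prefix YZ and 10 within YZ2. Slc32a1, the vesicular GABA transporter, was at 50.4, 11.6, 4.7, 6.7 and 121 in medulloblastomas, against 1032, 264, 645, 676 and 574 in normal brains (log2 -4.38, SE 0.63, adjusted p = 0.000301). The call of Slc32a1 was kept in 24 of the alternatives and lost in 2, with an adjusted p by limma of up to 0.577. It therefore depends on the setting, as do the calls of other genes named here. Gad1, an enzyme that makes GABA, was at 410.3, 58.2, 56.5, 85.3 and 1991 in medulloblastomas, against 3534, 2473, 3070.4, 3504 and 3446 in normal brains (log2 -4.00, SE 0.81, adjusted p = 0.00202). Every tumour lay below every brain for both genes, and tumour C6 was the highest tumour.

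Glutamate receptor subunits fell in 10 of 13 (median -1.85), potassium and sodium channel genes in 15 of 16 (median -2.58), genes of vesicle release in 17 of 18 (median -2.35) and calcium and postsynaptic kinase genes in 14 of 15 (median -2.13). None of these lists had a member called higher. Against brain C5 alone their medians were -1.75, -2.65, -2.01 and -1.69, with 1 gene of the vesicle list called and 0 of the others. Within prefix YZ the numbers called lower were 2, 12, 12 and 9 in the same order, and within YZ2 they were 10, 5, 11 and 11. Gria1, an AMPA receptor subunit, was at 141, 10.1, 12.4, 56 and 242 in medulloblastomas, against 776, 988, 771, 616 and 832 in normal brains (log2 -3.76, SE 0.66, adjusted p = 0.000898). Kcnab1, an auxiliary potassium channel subunit, was at 83.4, 26.4, 32.4, 62.5 and 194 in medulloblastomas, against 1095, 532, 1116, 963 and 678 in normal brains (log2 -3.62, SE 0.44, adjusted p = 0.000125). Every tumour lay below every brain for both. Syt1, the calcium sensor of vesicle release, averaged 559 ± 593 in medulloblastomas and 3368 ± 1054 in normal brains (SD, n = 5 each), with C1 and C6 the highest tumours. Camk2a, the postsynaptic kinase subunit, was at 696, 6.7, 15, 9.1 and 204 in medulloblastomas, against 1782, 2944, 2767, 268 and 2597 in normal brains (log2 -4.80, SE 1.10, adjusted p = 0.00407). The groups overlapped for Camk2a, since tumour C1 exceeded brain C5.

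Neuronal cytoskeleton genes fell in 9 of 16 and rose in 4, and with the array code as a block 9 fell and 3 rose. Tumour C4 and brain C3 have no partner of their code, so under that block they add nothing to the difference. Those that rose were Dcx, Marcksl1, Tubb2b and Stmn1, and the neurofilament genes Nefl, Nefm and Nefh were among those that fell. Dcx, which binds microtubules in migrating young neurons, was at 403, 1028, 808, 559.6 and 1312 in medulloblastomas, against 68.1, 199.8, 83.2, 17.8 and 124 in normal brains (log2 3.17, SE 0.51, adjusted p = 0.000524). Every tumour exceeded every brain. In the axon guidance list 5 of 21 rose and 9 fell, and 3 rose without brain C1. The netrin receptor Dcc was at 997, 1382, 1375, 937 and 304 in medulloblastomas, against 202, 355, 149, 24.5 and 187 in normal brains (log2 2.60, SE 0.60, adjusted p = 0.00438), and the ephrin receptor Epha5 fell (log2 -3.22, SE 0.60, adjusted p = 0.00126).

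Forebrain and striatal genes were lower than in 4 of the brains, while brain C5 was low as well. Striatal, interneuron and neuropeptide genes fell in 15 of 16, with a median of -3.15. Tac1, the precursor of substance P, was at 88.4, 3.5, 13.9, 11.5 and 19 in medulloblastomas, against 2506, 584, 1473, 269.7 and 779.5 in normal brains (log2 -5.15, SE 0.65, adjusted p = 0.000152). Against C5 alone the list median was -1.63 and 0 of 16 were called. Forebrain patterning factors fell in 9 of 18 and 1 rose (median -1.67), and against C5 alone the median was 0.97 with none called. Mef2c, a factor of cortical neurons, was at 268, 144, 205, 67.4 and 261 in medulloblastomas, against 1194, 1592, 1356, 221 and 1779 in normal brains (log2 -2.52, SE 0.55, adjusted p = 0.00304). Lmo3, a LIM-domain cofactor, was at 106, 48.5, 2.0, 51.5 and 37.9 in medulloblastomas, against 474, 521, 600.3, 30.3 and 571 in normal brains (log2 -2.92, SE 0.84, adjusted p = 0.0133), and its difference from C5 alone had the other sign (0.20). Otx1 was the factor that rose, at 46.5, 61.6, 449, 75.9 and 7.6 in medulloblastomas against 6.1, 12.9, 8.6, 1.7 and 9.1 in normal brains. With the actin ratio as a covariate, 9 of 16 striatal genes and 4 of 18 patterning factors fell, and none rose. The calls of Lmo3 and Otx1 were then lost (adjusted p = 0.111 and 0.135 by limma).

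In the mature granule neuron list 4 of 11 fell (Gabrd, Kcnd2, Snap25 and Slc17a7) and 2 rose (Nrep and Reln). Snap25 and Slc17a7 are also in the vesicle list and Kcnd2 in the channel list. Gabra6, Cbln1, Cbln3, Grin2c and Calb2 did not pass, so the count is not read as a fall of granule neurons. Leaving out any single array other than brain C5 gave 1 rise, and leaving out C5 gave 3; with the array code as a block 1 rose. Gabra6 was at 10.5, 89.7, 53.5, 187 and 1324 in medulloblastomas, against 1.1, 8.2, 10.6, 4153 and 116 in normal brains (log2 0.95, SE 1.62, adjusted p = 0.654). Tumour C6 and brain C5 were the high arrays, and the spread within groups exceeded the difference between them. Purkinje and Bergmann cell genes fell in 4 of 10 (median -1.33). Those that fell were Pcp4, Calb1, Rora and Slc1a3, while Pcp2, Car8, Pvalb, Slc1a6, Gdf10 and Hopx did not pass. In the brains other than C5, with Gabra6 at 1.1 to 116, Pcp4 was still at 1622 to 4159. Its fall is therefore not read as one of Purkinje cells. Pcp4, a calmodulin-binding protein of Purkinje cells, was at 729, 137, 218, 191 and 1757 in medulloblastomas, against 3560.4, 1622, 4159, 5095 and 2579 in normal brains (log2 -3.05, SE 0.62, adjusted p = 0.00202). Against C5 alone the medians were -2.91 for the mature granule list and -3.88 for the Purkinje and Bergmann list.

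**Figure D4:**
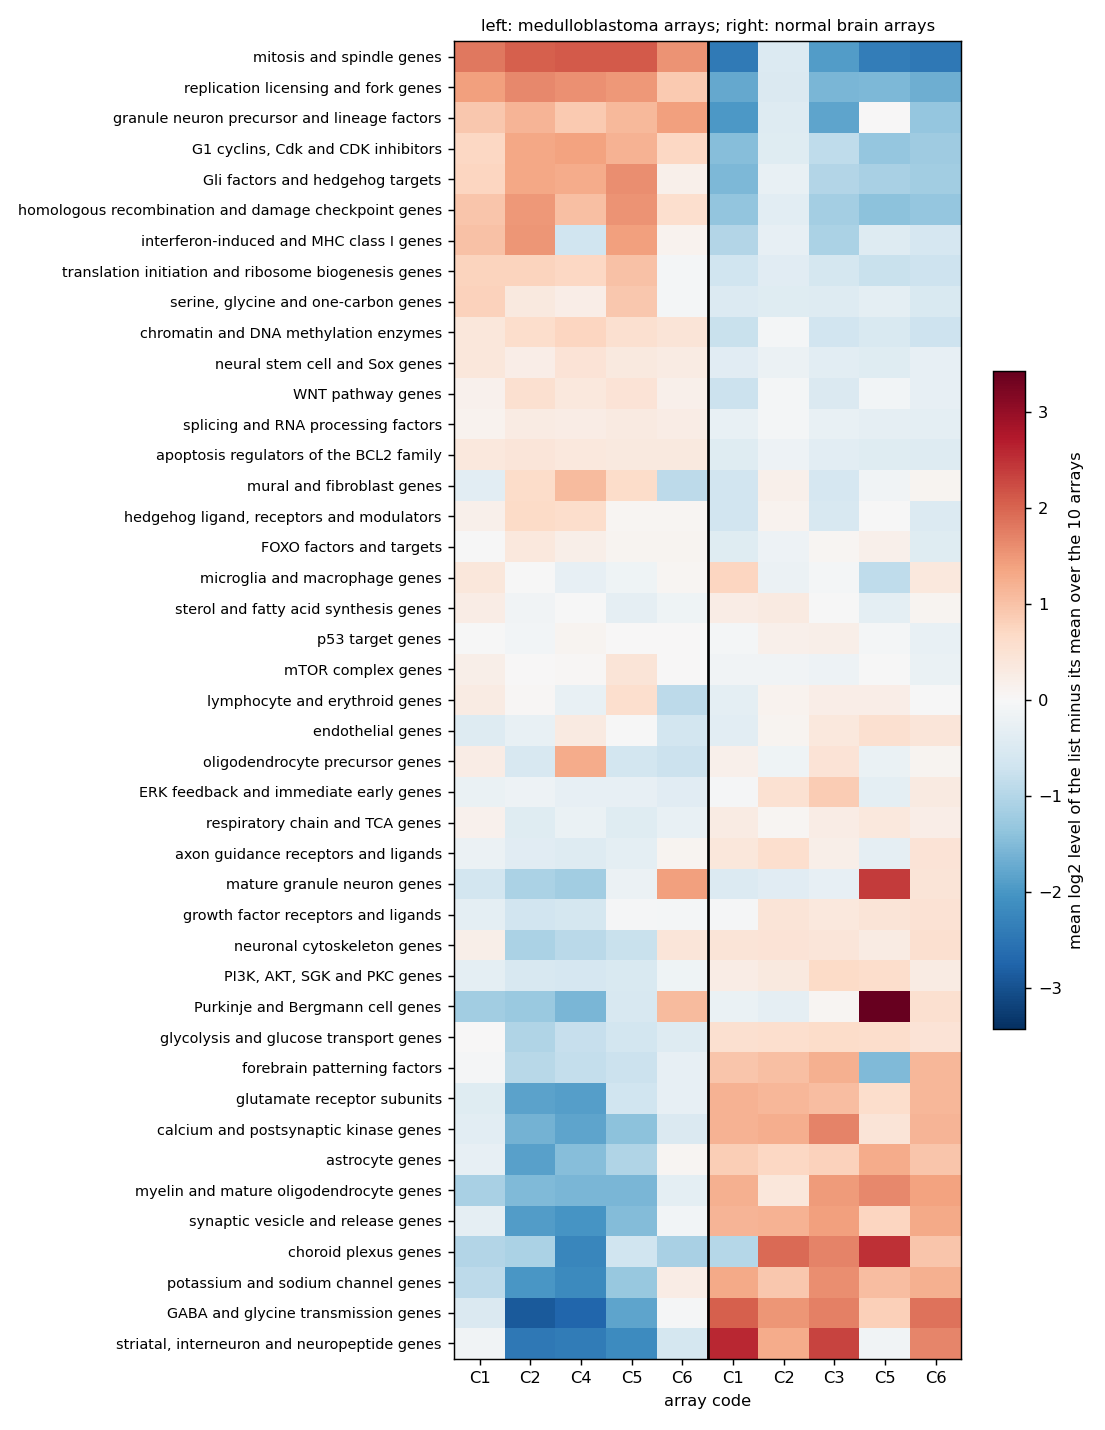
Mean log2 level of each list's tested members, minus its mean over the 10 arrays, in the 5 medulloblastomas (left of the line) and the 5 normal brains (right). Brain C5 is high for Purkinje and mature granule genes and low for forebrain factors, with summed intensities of 34364, 24133 and 981.

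Myelin genes fell in 12 of 13, with a median of -2.29 and none higher. Mobp, a protein of compact myelin, was at 54.4, 43.4, 12.7, 19.5 and 202 in medulloblastomas, against 1186, 585, 2029.9, 1873 and 1428 in normal brains (log2 -4.72, SE 0.57, adjusted p = 0.000125). Mal, a myelin proteolipid, averaged 57.6 ± 31.8 in medulloblastomas and 679 ± 169.8 in normal brains (SD, n = 5 each; log2 -3.48, SE 0.30, adjusted p = 3.68e-05). Every tumour lay below every brain for both. Against C5 alone 5 of 13 were called, with a median of -2.92. Of 12 oligodendrocyte precursor genes 1 rose and 1 fell, with 3 higher without tumour C6 and 3 lower without tumour C4. With the array code as a block, to which tumour C4 adds nothing, 1 rose and 4 fell. Pdgfra, the PDGF receptor of those precursors, was the one that rose, at 1123, 1076, 2019, 374 and 1608 in medulloblastomas against 305, 389, 416, 150.4 and 316 in normal brains (log2 1.84, SE 0.42, adjusted p = 0.00382). Tumour C5 lay below the highest brain.

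Astrocyte genes fell in 11 of 14 (median -2.14), with Gfap, Aqp4 and S100b not passing. Gjb6, a gap junction protein, was at 96.9, 13.2, 14, 5.9 and 116 in medulloblastomas, against 404, 514, 561, 667 and 455 in normal brains (log2 -3.85, SE 0.59, adjusted p = 0.000397). Fgfr3 and Clu, which encodes the secreted chaperone clusterin, had differences of -2.46 (SE 0.31) and -2.39 (SE 0.42). The summed intensity of the list was 3439.6 to 10121 in medulloblastomas and 17651 to 24083 in normal brains, with no overlap.

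Microglia and macrophage genes rose in 1 of 15 and fell in 3, and single arrays moved both counts. The number higher was 5 without brain C1, 2 without brain C6 or tumour C4, and 0 without tumour C1, C2 or C5 or brain C2, C3 or C5. The number lower was 0 without brain C1, C3 or C6 and 1 without tumour C2 or C5. With the array code as a block 2 rose and 2 fell. Their summed intensity was 2335 to 4164 in medulloblastomas and 1603 to 4833 in normal brains. Interferon-induced and MHC class I genes rose in 8 of 12 (median 1.31). Rsad2, an antiviral enzyme, was at 163, 531, 84.2, 788 and 127 in medulloblastomas, against 39.9, 123, 36.7, 54.9 and 46 in normal brains (log2 2.01, SE 0.57, adjusted p = 0.0124). H2-K1, a class I heavy chain, was at 1666, 1596, 308, 1164 and 575 in medulloblastomas, against 256, 377, 236, 427 and 304 in normal brains (log2 1.49, SE 0.42, adjusted p = 0.0123). Tumour C4 overlapped the brains for both. None of the 12 was called within title prefix YZ and 5 within YZ2 (2 tumours, 3 brains).

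Endothelial genes fell in 4 of 11, and in 2 without tumour C1 or C2 or brain C2, C3 or C6. The members were Slco1a4 and Slc2a1, transporters of the blood-brain barrier, Abcb1a and Flt1. Slco1a4 was at 77.3, 95.4, 155, 135 and 203 in medulloblastomas, against 332, 372, 372, 385 and 459 in normal brains (log2 -1.55, SE 0.24, adjusted p = 0.000424), and every tumour lay below every brain. The Flt1 call was lost with the array code as a block (adjusted p = 0.0538). Mural and fibroblast genes rose in 2 of 12, Col3a1 and Col4a1, and in 0 without tumour C2, C4 or C5 or brain C1 or C3, and in 1 without brain C5 or C6; none fell, and 1 fell without tumour C4. With the array code as a block 1 rose and 1 fell.

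Choroid plexus genes fell in 5 of 7 and none rose, with 1 higher without tumour C4 and 1 with the array code as a block. Ttr, the transthyretin that the choroid plexus secretes into cerebrospinal fluid, was at 6.0, 13.7, 9.9, 5.1 and 106 in medulloblastomas, against 60.2, 8445, 9185, 9234 and 5652 in normal brains (log2 -7.13, SE 1.25, adjusted p = 0.000887). This was the largest fall of the called genes ranked, and brain C1 lay below tumour C6. Kl, the hormone co-receptor klotho, was at 6.8, 8.3, 1.1, 7.2 and 2.8 in medulloblastomas, against 26.5, 127, 81.5, 160.2 and 45.6 in normal brains (log2 -2.84, SE 0.42, adjusted p = 0.000323), and C1 was again the lowest brain. The list median was -2.37 in Rictor-null mice and -0.25 in heterozygous mice, where the 2 medulloblastomas averaged 4376 for Ttr. How much choroid plexus each piece held was not tested.

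In the list of mTOR complex genes 5 of 16 rose and 3 fell (median -0.07), and with the array code as a block 4 rose and 1 fell. The mTORC2 subunit Mapkap1, also known as SIN1, was at 432, 298, 300.1, 296 and 324 in medulloblastomas, against 204, 167, 171, 186 and 175 in normal brains (log2 0.84, SE 0.16, adjusted p = 0.00124). Every tumour exceeded every brain. Prr5l, which binds mTORC2, fell (log2 -0.89, SE 0.26, adjusted p = 0.0138), as did the inhibitor Deptor (log2 -0.998, SE 0.30, adjusted p = 0.0171), whose call was lost with the array code as a block (adjusted p = 0.0512). Mtor was at 373, 239, 220.2, 351 and 302 in medulloblastomas, against 456, 389, 434, 427 and 390.2 in normal brains (log2 -0.52, SE 0.17, adjusted p = 0.0283). That call was lost with the block (adjusted p = 0.1) and without tumour C2 or C4 or brain C1 or C3, and the sign turned with the median of its probe sets (log2 0.18). Rptor, Mlst8, Akt1s1, Tsc1, Tsc2, Rheb and Rps6kb2 did not pass, with differences from -0.43 to 0.58.

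Downstream of mTORC1, Eif4ebp1, a repressor of the cap-binding protein, was at 636, 310.4, 178, 681 and 101 in medulloblastomas, against 40.4, 59.3, 33.7, 30.9 and 35.6 in normal brains (log2 2.77, SE 0.46, adjusted p = 0.000665). Every tumour exceeded every brain. Eif4ebp2 and the ribosomal protein gene Rps6 had differences of 2.04 (SE 0.30) and 1.59 (SE 0.32). Eif4e, the cap-binding protein, rose (log2 0.61, SE 0.18, adjusted p = 0.0129), with an adjusted p of 0.076 under the block. Genes of translation initiation and ribosome biogenesis rose in 15 of 16 (median 1.24). Nop58, a core protein of the particles that modify ribosomal RNA, was at 644, 1064, 899, 773 and 692 in medulloblastomas, against 161, 225, 168, 187 and 219.6 in normal brains (log2 2.04, SE 0.18, adjusted p = 3.78e-05).

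In the PI3K, AKT, SGK and PKC list 2 of 18 rose and 11 fell (median -1.04), and with the array code as a block 1 rose and 9 fell. Irs1, an insulin receptor substrate, was at 2025, 1919, 1639, 2129.5 and 921 in medulloblastomas, against 96.5, 409, 175, 322 and 236 in normal brains (log2 2.87, SE 0.36, adjusted p = 0.000152), and every tumour exceeded every brain. Akt1 was the other gene that rose, a call lost with the block, and Irs2 fell. The PKC genes Prkca and Prkce, abundant in neurons, had differences of -2.45 (SE 0.44) and -2.43 (SE 0.44), and the lipid phosphatase Inpp4b one of -2.83 (SE 0.42). FOXO factors and targets rose in 6 of 17 and fell in 5. Gadd45a, a stress-induced target, had a difference of 2.46 (SE 0.36), and the repressor Bcl6 one of -2.07 (SE 0.35).

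Growth factor receptors and ligands fell in 8 of 17 and rose in 1; 5 fell without tumour C2 or brain C6, and 2 rose without tumour C1 or C4 or with the array code as a block. Ntrk2, the receptor of BDNF, was at 226, 108, 105, 154 and 272 in medulloblastomas, against 494, 434, 436, 413 and 529.8 in normal brains (log2 -1.48, SE 0.26, adjusted p = 0.000849), and Bdnf fell too (log2 -2.40, SE 0.43, adjusted p = 0.000995). ERK feedback and immediate early genes fell in 9 of 20 and rose in 2, and with the array code as a block 4 fell and 1 rose. None rose without tumour C2 or brain C2, and 1 rose without any single one of tumours C1, C4 and C5 and brains C1, C3 and C6. Arc, an immediate early gene of synapses, was at 1.3, 2.2, 0.7, 0.9 and 25.9 in medulloblastomas, against 27.1, 67.4, 127, 11 and 67.7 in normal brains (log2 -2.40, SE 0.57, adjusted p = 0.00491), and tumour C6 overlapped the brains.

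WNT pathway genes rose in 9 of 16 and fell in 2, with 5 higher without brain C1 and 1 lower without tumour C2, tumour C5 or brain C5. Sfrp1, a secreted WNT inhibitor, was at 454, 1188, 822, 683 and 419 in medulloblastomas, against 32.2, 193, 46.6, 55.7 and 47.4 in normal brains (log2 3.32, SE 0.42, adjusted p = 0.000163), and every tumour exceeded every brain. Axin2 and Lef1, common readouts of beta-catenin, did not pass the test. The Wif1 call, for another secreted inhibitor, was lost with the array code as a block (adjusted p = 0.0518) and without tumour C2 or C4 or brain C1, C2 or C3.

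BCL2 family genes rose in 6 of 12 and none fell (median 0.55). Pmaip1, Bcl2l11 and Bid, which encode the death-promoting proteins NOXA, BIM and BID, had differences of 2.09 (SE 0.39), 1.63 (SE 0.31) and 1.23 (SE 0.30). Of 14 p53 targets, in mice labelled p53-/- on both sides, 3 rose and 5 fell, and 3 fell without tumour C2, tumour C5, brain C2 or brain C6. Eda2r, a death receptor, was at 31.6, 103, 67.4, 73.9 and 90.8 in medulloblastomas, against 0.6, 17, 10, 0.8 and 0.8 in normal brains (log2 2.83, SE 0.40, adjusted p = 0.000285). Every tumour exceeded every brain. Cdkn1a and Mdm2 did not pass.

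Genes of glycolysis and glucose transport fell in 13 of 17 (median -1.36) and 1 rose, with 3 higher without tumour C6 and 2 without tumour C1 or brain C5. Eno2, the neuronal enolase, was at 415, 25.4, 22.1, 44.4 and 365 in medulloblastomas, against 1543, 1019, 1782, 1363 and 1182 in normal brains (log2 -3.86, SE 0.73, adjusted p = 0.00132). Hk2, a hexokinase of dividing cells, was at 490.2, 939.9, 1418, 1013 and 219 in medulloblastomas, against 45.4, 127, 34.1, 129 and 39.4 in normal brains (log2 3.29, SE 0.52, adjusted p = 0.00047). Every tumour was below every brain for Eno2 and above every brain for Hk2. Respiratory chain and TCA genes fell in 8 of 20 (median -0.44), led by Sdha, the flavoprotein of complex II (log2 -1.57, SE 0.24, adjusted p = 0.000355).

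Serine, glycine and one-carbon genes rose in 12 of 15 and fell in 1 (median 1.07). Mthfd2, the mitochondrial folate enzyme, was at 295, 282, 202, 490.3 and 191 in medulloblastomas, against 47.1, 60.3, 48.4, 62 and 47.7 in normal brains (log2 2.25, SE 0.25, adjusted p = 8.03e-05). Aldh1l1, a folate enzyme that is also an astrocyte gene, was the one that fell (log2 -2.16, SE 0.42, adjusted p = 0.00156). Sterol and fatty acid synthesis genes fell in 4 of 17 and rose in 2, with 0 higher without tumour C5 or brain C3 or C5, and 1 without tumour C2 or C4 or brain C2 or C6 or with the array code as a block. Scd1, a desaturase, was at 187, 30.8, 75.5, 41.3 and 263 in medulloblastomas, against 780.4, 516, 556, 779 and 898 in normal brains (log2 -2.88, SE 0.49, adjusted p = 0.000737).

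Splicing and RNA processing factors rose in 10 of 17 and fell in 4, and with the array code as a block 9 rose and 3 fell. Ptbp1, which represses neuronal exons, was at 690.2, 1231, 1019, 1035 and 259 in medulloblastomas, against 86.2, 225, 124, 133 and 90.3 in normal brains (log2 2.53, SE 0.40, adjusted p = 0.000497). Rbfox1, which promotes neuronal exons, was at 294, 158, 212, 163 and 468 in medulloblastomas, against 1411, 1270.3, 2174, 1088 and 1217 in normal brains (log2 -2.52, SE 0.30, adjusted p = 0.000111). No tumour lay in the range of the brains for either gene. Celf4, Rbfox3 and Nova2, factors of mature neurons, were the other genes that fell.

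The tissue difference of Rictor-heterozygous mice, measured on other arrays, had the same sign as that of Rictor-null mice for 6478 of the 6537 genes called (99.1%, against 86.3% of all genes). The 2 differences correlated at r = 0.936 across 13931 genes, which are not independent replicates. Limma called 0 genes for the difference between the 2 tissue effects, with 264 at an unadjusted p under 0.05, and 4 genes without heterozygous medulloblastoma B4. Ttr had a log2 difference of -7.13 in Rictor-null and -2.35 in heterozygous mice, a difference between them of -4.78 (SE 2.86, adjusted p = 1). The heterozygous medulloblastomas number 2, and the count of 0 does not show that the effects are alike.

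**Figure D5:**
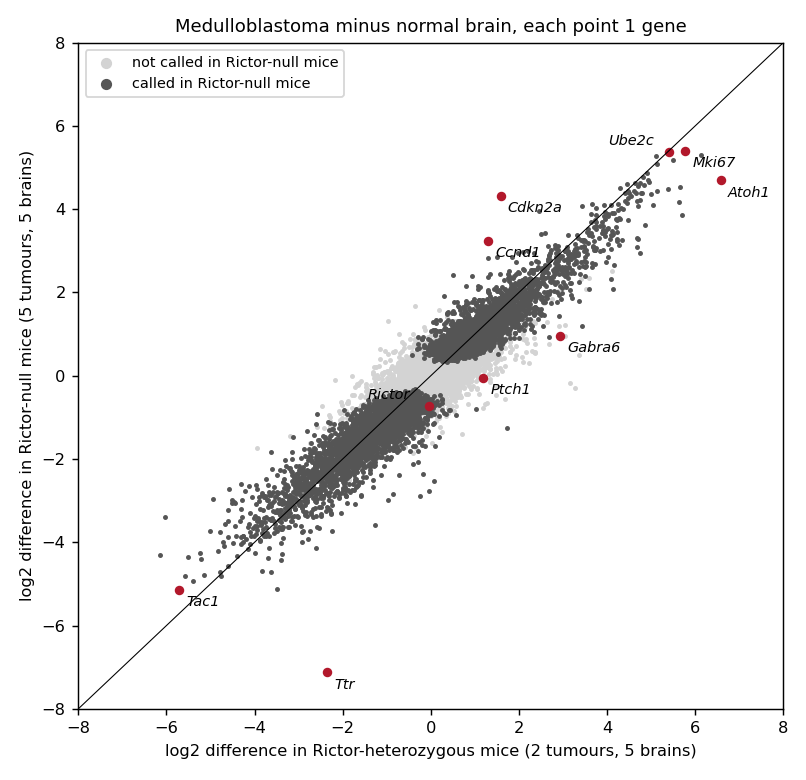
Log2 difference, medulloblastoma minus normal brain, of 13931 genes in Rictor-null mice (vertical) against Rictor-heterozygous mice (horizontal), with the line of equality; dark points were called in Rictor-null mice. The points lie along the line (r = 0.936), and Ttr lies at -7.13 and -2.35.

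Single arrays also carried genes of their own, given here without a test as the 2 genes farthest above the next array of the same tissue. Ccn3 was at 503 and Htr2c at 187 in tumour C1, against 26.1 and 8.1 in the next tumour. Ppp1r14a was at 436 and Dapk1 at 802 in tumour C2, against 73.1 and 173 in the next tumour. Dazl was at 323 and Col8a2 at 188 in tumour C4, against 11.2 and 11.7 in the next tumour. Fancc was at 523 and Gen1 at 507 in tumour C5, against 65.2 and 77.5 in the next tumour. Eif2s3y was at 391 and Esrrg at 423 in tumour C6, against 3.2 and 23.5 in the next tumour. Among the normal brains, Avp was at 526 and Hcrt at 211 in brain C1, against 16.7 and 36.5 in the next brain. Atoh1 was at 176 and Mki67 at 275 in brain C2, against 9.7 and 27.2 in the next brain. Plekhg1 was at 385 and Stk32c at 273 in brain C3, against 62.7 and 44.3 in the next brain. Cbln3 was at 2372 and Gabra6 at 4153 in brain C5, against 55.8 and 116 in the next brain. Eif2s3y was at 172 and Slc6a3 at 239 in brain C6, against 0.3 and 14.9 in the next brain. Esrrg is an orphan nuclear receptor, Avp and Hcrt are hypothalamic peptides, and Slc6a3 is the dopamine transporter. Eif2s3y is a Y-linked gene, read in tumour C6 and brain C6.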

How the data were processed

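Gene expression was measured on Affymetrix Mouse 430 2.0 arrays. The authors deposited a linear intensity for each of 45101 probe sets on 28 arrays, made with MAS5 and GCOS per the submitters' processing notes, with no version given there. Per the labels' protocols, tumours were snap frozen with mostly tumour tissue. A sum of 6.3 (the 25th percentile of the table) was added before log2. The probe set with the highest mean stood for each gene, and genes above the 30th percentile of mean level were tested (13931 of 18193). Of the probe sets, 34945 had 1 symbol in the platform annotation, 932 several and 9211 none. Differences were tested with limma 3.58.1 in R 4.3.3 (lmFit, eBayes with trend) and Benjamini-Hochberg adjustment over all genes, 5 arrays against 5 arrays; the difference from heterozygous mice was fitted on all 28 arrays. Precision is set by how few arrays there are. The fit was tested on simulated data. Tables were joined with pandas 2.3.3 and numpy 2.4.6 under Python 3.11.15, and plots drawn with matplotlib 3.10.9.

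The samples and lists were chosen with earlier results of these data known. Rankings, also those of single arrays, left out clone and predicted names and genes whose probe sets were called in opposite directions. Named genes were those with the widest gaps or largest differences, from each list at most 4 called genes by size of difference, the mTOR complex genes and a few marker genes; other list members are named where they account for a count, chosen after their values were seen. Codes C1, C2, C5 and C6 occur in both tissues. Deviations from the group means correlated between arrays of one code at r = 0.321, 0.261, 0.176 and 0.199, so the code was taken to pair the arrays. The blocked fit draws the tissue difference from these codes only. Changes under the block can therefore come from the pairing or from the loss of tumour C4 and brain C3. SEs, adjusted p-values and counts not marked as blocked come from the fit without this block. Where a gene named by these rules lost its call with the code as a block, its adjusted p is given in the text. No such value is given for members named only to account for a count. Alternatives covered the pseudocount, filter, normalization, probe set rule, title prefix, actin ratio and leaving out arrays. Promoters are RefSeq's, on GRCm38.p6. Genes with no probe set of their own were not analysed here.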

Additional observations from a re-analysis of the deposited data

Results flagged for a closer look

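In each tissue, the highest or lowest of the 5 arrays was compared with the range of its group by Dixon's ratio, with a critical value of 0.71. Chance alone passes about 1 in 20 groups, and 44 of 388 combinations of gene and tissue passed. The intensities below are those of the array that stood apart; no cause was tested.

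Medulloblastoma C1 stood above the other arrays of its tissue for Htr2c (186.8, others 1.8 to 8.1) and Mapkap1 (432.2, others 295.6 to 323.8). Medulloblastoma C6 stood above the other arrays of its tissue for Ttr (105.8, others 5.1 to 13.7), Gabrd (88.3, others 9.0 to 17.8), Rora (396.5, others 51.4 to 89.6) and Mal (114.3, others 39.3 to 45.9). It also stood above them for Kit (126.7, others 28.7 to 42.9) and Arc (25.9, others 0.7 to 2.2). Medulloblastoma C6 stood below the other arrays of its tissue for Atoh1 (37.5, others 717.4 to 1334.5), Cxcr4 (101.4, others 302.3 to 436.0), Dcc (304.2, others 937.3 to 1382.2) and Eif4e (480.3, others 763.7 to 807.4). Normal brain C1 stood below the other arrays of its tissue for Ttr (60.2, others 5651.7 to 9233.7). Normal brain C2 stood above the other arrays of its tissue for Igfbpl1 (26.8, others 1.5 to 5.5), Cep55 (42.4, others 5.2 to 8.9), Ccnb2 (57.0, others 14 to 17.8) and Gins1 (43.9, others 13.2 to 16.9). It also stood above them for Mcm3 (117.1, others 19.5 to 28.6), Rad51ap1 (107.1, others 14.2 to 24.9), Exo1 (37.2, others 5.5 to 8.8) and Uhrf1 (148.9, others 8.2 to 12.2). The same array stood above them for Hmgb2 (297.8, others 43.1 to 63.9), Atoh1 (176.2, others 1.4 to 9.7), Gli2 (168.7, others 40.2 to 53.3) and Sfrp1 (192.8, others 32.2 to 55.7). Normal brain C2 stood below the other arrays of its tissue for Mal (381.2, others 715.0 to 806.0) and Sdha (1183.6, others 1560.0 to 1665.6). Normal brain C5 stood above the other arrays of its tissue for Calb1 (6899.1, others 1610.6 to 1936.1), Slc1a3 (1589.0, others 554.4 to 698.1), Bcl6 (605.2, others 171.9 to 196.2) and Scd2 (4836.9, others 3772.7 to 3936.1). Normal brain C5 stood below the other arrays of its tissue for Sox11 (47.7, others 197.5 to 325.1), Lmo3 (30.3, others 473.7 to 600.3), Mef2c (221.1, others 1194.2 to 1778.7) and Grm5 (96.1, others 832.0 to 902.0). It also stood below them for Grm7 (188.3, others 423.8 to 574.0), Kcnc2 (157.2, others 508.4 to 756.0), Syt1 (1595.9, others 3351.3 to 4231.3) and Camk2a (267.5, others 1782.3 to 2944.0). The same array stood below them for Nrgn (55.2, others 349.7 to 711.6), Epha4 (80.3, others 311.8 to 475.2), Bok (87.2, others 170.1 to 196.7) and Plk2 (195.2, others 821.9 to 1409.7). It did so as well for Celf4 (1440.1, others 1914.1 to 2110.4).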

How the results depend on the processing

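The number of genes called, 6537 of 13931, kept within 1.5 times under another pseudocount, filter, normalization, probe set rule, prefix block, trend or group fit (5754 to 6830). It was 4498 with the actin ratio as a covariate, and 160 of the 182 named genes called then stayed called. The number was 2840 within title prefix YZ and 3221 within YZ2, which hold fewer arrays. With normal brain C5 as the only normal brain it was 450, of which 72% were higher, against 48.6% with all brains; 1 brain is then assumed to vary like the tumours. Leaving out 1 array gave 5605 to 6942. With the array code as a replicate block, to which tumour C4 and brain C3 add nothing, it was 5461. Of the 182 named genes called, 174 then stayed called. Beyond those given in the report, Cd14, Fcer1g and Col4a1 did not (adjusted p = 0.0709, 0.0696 and 0.0611 by limma). With that block 7 of 13 glutamate receptor subunits and 7 of 18 forebrain patterning factors fell, and 6 of 16 WNT pathway genes rose. The signs of 4 genes turned against C5 alone, with log2 differences of 0.20 for Lmo3, 0.29 for Csf1r, -0.11 for Wif1 and 0.03 for Msmo1. That of Mtor was 0.18 with the median of its probe sets. With that median 169 of the 182 named genes called stayed called in the same direction. Of 5298 genes called under both probe set rules, 5270 had the same direction. For the difference between Rictor-null and heterozygous mice the count was 0, and 0 to 4 with 1 array left out. The causes were not tested. Probe sets near background are limited in precision.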

Other observations

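Immunoglobulin genes, looked at after their values were seen, differed between tumours. Igha, the IgA heavy chain, was at 4563, 1111, 51.5, 951 and 48.1 in medulloblastomas C1, C2, C4, C5 and C6, against 12.6 to 61.4 in normal brains (log2 3.62, adjusted p = 0.0177 by limma). Jchain, the joining chain of secreted antibodies, was at 1632, 316, 15.3, 174 and 19.3 in the same tumours, against 13.8 to 24.0 in normal brains (adjusted p = 0.0526 by limma). Tumour C1 was the highest for both, and for Ighm (626) and Mzb1 (224).

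In tumour C5, where Mycn was at 4134 and Ptch1 at 42.3, some neighbours of both genes on the chromosome also stood apart and others did not; these were looked at after values were seen and have no test of their own. Near Mycn, Ddx1 was at 5709 in C5 and 789 to 1881 in the other tumours, against 670 to 836 in normal brains. Nbas was at 824 in C5 and 75.7 to 147 in the other tumours, against 96.0 to 172 in normal brains. Smc6 was at 2242 in C5 and 411 to 739 in the other tumours, against 167 to 289 in normal brains. Cyria, beside Mycn, was at 609 in C5 and 164 to 347 in the other tumours, against 261 to 818 in normal brains. Lratd1 was at 240 in C5 and 0.8 to 60.6 in the other tumours, against 98.9 to 358 in normal brains. Fancc, beside Ptch1, was at 523 in C5 and 27.9 to 65.2 in the other tumours, against 23.2 to 39.1 in normal brains. The other neighbours of Ptch1 lay near or within the range of the other tumours in C5: Ercc6l2, on its other side, was at 157 in C5 and 135 to 148 in the others, Aopep at 74.5 and 61.3 to 190.4, Slc35d2 at 37.7 and 30.4 to 77.5, and Zfp367 at 221 and 229 to 336. Near Mycn, Vsnl1 was at 167 in C5 and 26.5 to 646 in the other tumours, and Trib2 was lowest in C5, at 297 against 354 to 746.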
